A study of Mus musculus with 6 samples.

Results

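A set of 9 genes that regulate the self-renewal of hematopoietic stem cells (HSCs) was followed in irradiated mouse bone marrow: Mecom, Prdm16, Hlf, Meis1, Mllt3, Hmga2, Msi2, Igf2bp2 and Myct1. They were found by gene name in the expression table, which held 9 of 9 among 55487 genes. RNA sequencing had been carried out on LSKs (cells without lineage markers that carry Sca-1 and c-Kit, the bone marrow fraction that holds stem and multipotent progenitor cells) from 3 Tespa1+/+ (littermate wild type) and 3 Tespa1-/- (knockout) samples. The knockout line is B6.129S-Tespa1tm1Smoc, backcrossed to C57BL/6 for more than 6 generations, and the mice were males of 8 to 10 weeks. Both genotypes had received 5.0 Gy of total body irradiation, and LSKs were taken at day 13, so that every library, controls included, comes from irradiated marrow. The allele is carried from birth in every cell and is not restricted to blood. The sources did not say if mice were pooled into a replicate, so p-values measure the spread between these samples, which may be technical.

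HSCs persist because some daughter cells stay undifferentiated when the cell divides. The genes described here act at different layers of that program. Mecom, Prdm16, Hlf and Meis1 encode DNA-binding transcription factors of the stem cell state. Mllt3 and Hmga2 act on chromatin, and Msi2 and Igf2bp2 bind messenger RNAs and set their stability and translation. Myct1, MYC target 1, is expressed in endothelial and blood stem cells. Msi2, Meis1 and Myct1 were also picked out by the study, which marks them on its plots of these libraries, so their direction here is not independent of that choice.

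Total counts ranged from 12856630 to 30576981 per library, and the counts of the 9 genes from 23 to 5619, so none was near 0 in any library. Tespa1 itself, given as CPM (counts on a common library total, scaled with TMM factors), was 34.46, 32.71 and 35.95 in Tespa1+/+ libraries and 15.32, 14.26 and 14.19 in Tespa1-/- libraries. The targeted gene was thus lower in all knockout libraries, by 2.35-fold (adjusted p = 7e-06, edgeR quasi-likelihood test), but was not at 0; which part of it the allele removes was not given in the sources used here. Of the genes that define the sort, Kit was lower in Tespa1-/- LSKs (log2 fold change -0.97, adjusted p = 2.1e-06 by edgeR). Ly6a, which encodes Sca-1, had a log2 fold change of -0.32 that did not pass the test (adjusted p = 0.109 by edgeR). It passed with library totals alone (-0.42, adjusted p = 0.0482 by edgeR) and in the length correction described below (-0.56, adjusted p = 0.0158 by edgeR), also in its robust version (-0.67, adjusted p = 0.00893 by edgeR).

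The sequence before the transcription start is given for 4 of the genes. They are Msi2, the most abundant of the 9, Hmga2, which had the largest fold change, Myct1, which has the shortest union exon length (exons of all its transcripts merged), and Prdm16, which was not called. The stretches end at the base before a RefSeq start on GRCm38.p6 and read 5' to 3' on the strand of the gene. They lie at chr11:88718278-88718451 on the minus strand for Msi2, cut where an annotated exon begins, at chr10:120476470-120476719 on the minus strand for Hmga2, at chr10:5593478-5593727 on the plus strand for Myct1, and at chr4:154636874-154637123 on the minus strand for Prdm16. Capitals mark matches, on either strand, to the motifs named after them.
Msi2: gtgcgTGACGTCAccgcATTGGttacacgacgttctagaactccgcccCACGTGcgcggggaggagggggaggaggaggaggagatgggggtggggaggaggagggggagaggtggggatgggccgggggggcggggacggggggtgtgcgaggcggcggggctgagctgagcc
Hmga2: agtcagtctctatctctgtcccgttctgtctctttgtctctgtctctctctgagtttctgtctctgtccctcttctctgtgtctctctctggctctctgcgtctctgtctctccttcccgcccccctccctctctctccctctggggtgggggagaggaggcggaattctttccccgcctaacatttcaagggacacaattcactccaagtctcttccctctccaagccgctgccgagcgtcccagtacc
Myct1: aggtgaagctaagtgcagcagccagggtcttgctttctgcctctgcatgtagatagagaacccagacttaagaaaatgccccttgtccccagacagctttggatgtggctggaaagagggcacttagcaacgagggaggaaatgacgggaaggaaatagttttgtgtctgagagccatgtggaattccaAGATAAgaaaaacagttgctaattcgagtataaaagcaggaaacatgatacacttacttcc
Prdm16: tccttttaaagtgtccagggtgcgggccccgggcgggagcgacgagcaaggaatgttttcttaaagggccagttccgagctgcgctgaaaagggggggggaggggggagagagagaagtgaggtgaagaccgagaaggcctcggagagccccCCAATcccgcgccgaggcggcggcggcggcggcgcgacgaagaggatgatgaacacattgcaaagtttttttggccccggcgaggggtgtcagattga

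The Msi2 stretch holds a cyclic AMP response element (TGACGTCA), a CCAAT box (CCAAT, here on the other strand) and an E-box (CACGTG, the letters that MYC and related factors bind). Among the 13 windows of 250 bases that RefSeq gives for the 9 genes, the E-box occurred in those of Msi2 and in no other, against 6.02% of all 32851 windows. Myct1 held a GATA motif (AGATAA), which 9.99% of all windows hold, and Prdm16 a CCAAT box, which 33.8% hold. None of the 9 motifs searched matched in the Hmga2 window. The others searched were a MEIS motif (TGACAG, in 15.9% of windows), a PAR bZIP motif (TTACGTAA, 0.113%), a RUNX motif (TGTGGT, 14.0%), an ETS motif (CCGGAAG, 6.91%) and an EGR motif (GCGTGGG, 4.30%), and the cyclic AMP response element was in 1.55%. No window of the 9 genes held the PAR bZIP or EGR letters. A match is a description of letters and does not show that a factor binds.

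Of the 9 genes, 8 were lower in Tespa1-/- LSKs when genes with a fold above 1.5 and an adjusted p below 0.05 were called, and 0 were higher. The exception was Prdm16. Over all 15332 genes tested, 19.2% were called lower and 14.0% higher. With library totals alone in place of TMM factors, the genes called lower and higher numbered 3516 and 1491 instead of 2951 and 2148. The same 8 genes had every Tespa1-/- library below every Tespa1+/+ library, which held for 34.6% of all genes tested. Their median log2 fold change, Prdm16 included, was -1.26, beside 0 for all genes tested. In bulk samples, fewer cells of a type and less RNA per cell cannot be told apart.

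**Figure D1:**
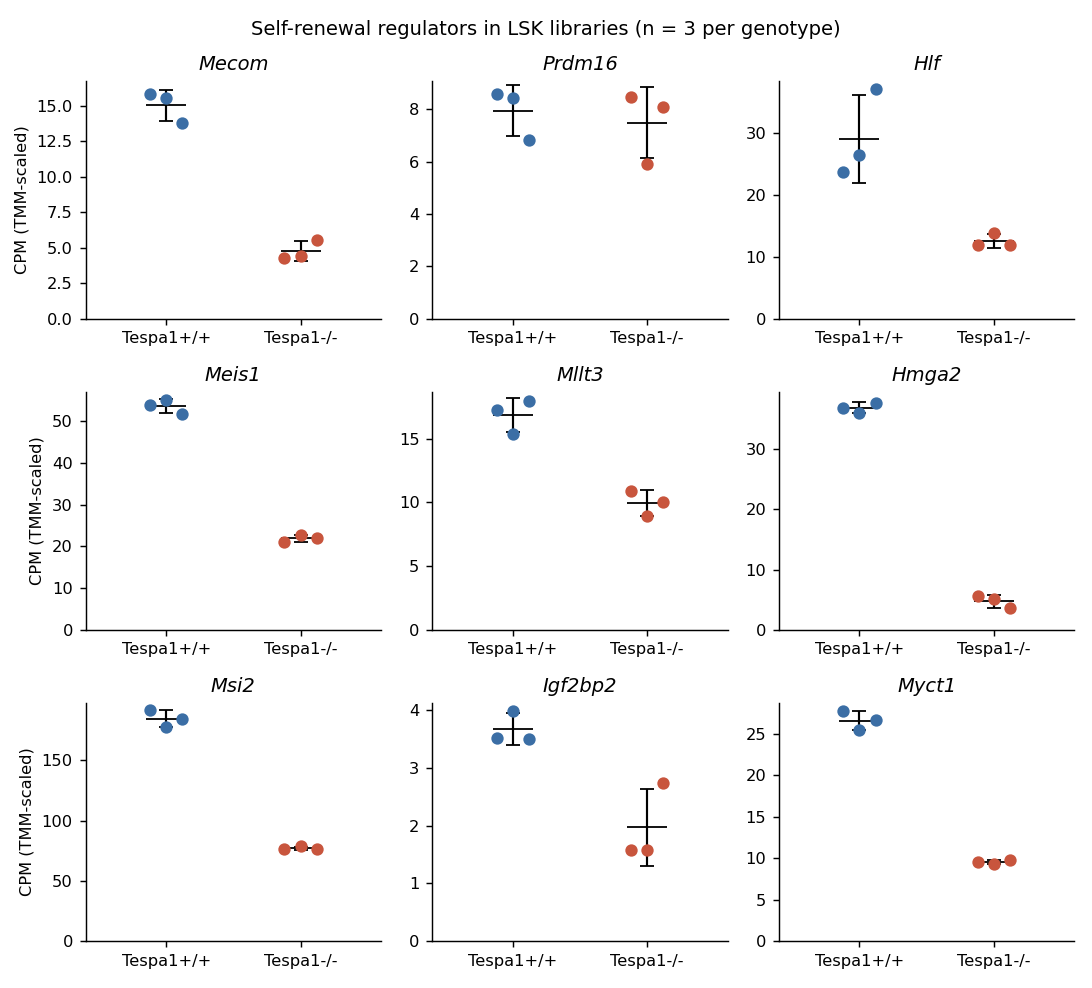
Level of each of the 9 genes in CPM (vertical axis from 0, scaled with TMM factors) in the 3 Tespa1+/+ (blue) and 3 Tespa1-/- (red) libraries, with the mean (bar) and SD (whiskers). The points of the genotypes are apart for every gene but Prdm16, and Hmga2 drops from between 35.97 and 37.77 CPM down to 3.55 to 5.58.

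Mecom (ENSMUSG00000027684, GRCm38 chromosome 3, 29951296 to 30548008, minus strand) encodes the zinc finger protein EVI1, a transcription factor that long-term HSCs require. Its level was 15.8, 15.5 and 13.8 CPM in the Tespa1+/+ libraries and 4.29, 4.41 and 5.56 CPM in the Tespa1-/- libraries. All knockout libraries lay far below all wild-type libraries, and the spread within each genotype was small. Mecom fell 3.18-fold in Tespa1-/- LSKs (log2 fold change -1.67, SE 0.125, adjusted p = 2.79e-05, edgeR quasi-likelihood test).

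Prdm16 (ENSMUSG00000039410, chromosome 4, 154316125 to 154636873, minus strand) encodes the closest relative of that protein, which also maintains HSCs. Its level was 8.59, 8.42 and 6.81 CPM in Tespa1+/+ libraries and 8.45, 5.92 and 8.06 CPM in Tespa1-/- libraries. The genotypes overlapped, with the lowest value in a knockout library and a wild-type library next to it. The log2 fold change was -0.09 (SE 0.162, adjusted p = 0.645 by edgeR), and its 95% interval for the fold, wild type over knockout, ran from 0.818 to 1.39. The log2 ratio of Mecom to Prdm16 was 0.871, 0.873 and 1.003 in wild-type and -0.962, -0.417 and -0.527 in knockout libraries. Every ratio was lower in the knockout, with an exact two-sided permutation p of 0.1, the smallest that 3 against 3 samples allow, and 0.14 after Benjamini-Hochberg adjustment over 7 such ratios.

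Hlf (ENSMUSG00000003949, chromosome 11, 90336536 to 90390895, minus strand) encodes a transcription factor of the PAR bZIP family that keeps HSCs quiescent. Its level was 23.6, 26.4 and 37.0 CPM in Tespa1+/+ libraries and 11.9, 13.8 and 11.9 CPM in Tespa1-/- libraries. The third wild-type library stood above the others, and all knockout libraries stayed below the lowest wild-type value. Hlf fell 2.31-fold (log2 fold change -1.21, SE 0.174, adjusted p = 0.000725 by edgeR), and without the third wild-type library the log2 fold change was -0.99.

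Meis1 (ENSMUSG00000020160, chromosome 11, 18879817 to 19018985, minus strand) encodes a TALE homeodomain protein that binds DNA together with HOX proteins. Its level was 53.95, 55.10 and 51.87 CPM in Tespa1+/+ libraries and 21.02, 22.80 and 22.02 CPM in Tespa1-/- libraries. The libraries of a genotype were close together and the genotypes far apart. Meis1 fell 2.45-fold (log2 fold change -1.29, SE 0.056, adjusted p = 2.8e-06 by edgeR). Its exons share 1029 bases with Gm37818 on the same strand and 896 with the antisense gene Gm16140, which held 909 and 79 counts over the 6 libraries, so that a part of its count is uncertain.

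Mllt3 (ENSMUSG00000028496, chromosome 4, 87769925 to 88033364, minus strand) encodes AF9, a YEATS-domain reader of acylated histones in the super elongation complex. Its level was 17.3, 15.4 and 17.9 CPM in Tespa1+/+ libraries and 10.9, 8.95 and 10.0 CPM in Tespa1-/- libraries. The genotypes did not overlap, although the gap was the narrowest, relative to the level, among the transcription and chromatin regulators that were called. Mllt3 fell 1.69-fold (log2 fold change -0.75, SE 0.105, adjusted p = 0.000595 by edgeR), a call that was lost in the length correction described below.

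Hmga2 (ENSMUSG00000056758, chromosome 10, 120361275 to 120476469, minus strand) encodes an AT-hook protein that bends chromatin and is abundant in fetal stem cells, where the let-7 microRNAs do not yet repress it. Its count was 671, 1136 and 560 in Tespa1+/+ libraries and 95, 75 and 44 in Tespa1-/- libraries. This corresponded to 36.94, 35.97 and 37.77 CPM against 5.58, 5.17 and 3.55 CPM. The wild-type libraries were nearly equal, and the knockout libraries were all much lower. Hmga2 fell 7.65-fold (95% interval 6.06 to 9.66, log2 fold change -2.94, SE 0.143, adjusted p = 4.23e-06 by edgeR), and 0.587% of all genes tested had a lower log2 fold change. It shares 140 exon bases with the antisense gene 1700006J14Rik, which held 281 counts over the 6 libraries.

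Msi2 (ENSMUSG00000069769, chromosome 11, 88339382 to 88718513, minus strand) encodes Musashi-2, an RNA-binding protein that regulates translation in HSCs and leukemia cells. Its level was 191.8, 177.9 and 184.6 CPM in Tespa1+/+ libraries and 76.2, 78.6 and 76.7 CPM in Tespa1-/- libraries. The knockout libraries were almost identical and all lay far below the wild-type libraries. Msi2 fell 2.39-fold (log2 fold change -1.26, SE 0.040, adjusted p = 1.21e-06 by edgeR).

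Igf2bp2 (ENSMUSG00000033581, chromosome 16, 22059009 to 22163299, minus strand) encodes an RNA-binding protein of the IMP family that is a known target of HMGA2. Its level was 3.52, 3.99 and 3.51 CPM in Tespa1+/+ libraries and 1.59, 1.58 and 2.74 CPM in Tespa1-/- libraries. The third knockout library stood nearer to the wild-type values than the other knockout libraries did, but stayed below them. Igf2bp2 fell 1.91-fold (log2 fold change -0.93, SE 0.223, adjusted p = 0.00833 by edgeR). Its counts, 64, 126 and 52 against 27, 23 and 34, were the lowest of the 9 genes, and its call was also lost in the length correction.

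Myct1 (ENSMUSG00000046916, chromosome 10, 5593775 to 5606904, plus strand) is a direct target of MYC. Its level was 27.7, 25.4 and 26.6 CPM in Tespa1+/+ libraries and 9.51, 9.30 and 9.76 CPM in Tespa1-/- libraries. The values of each genotype formed a tight group, and the groups were well apart. Myct1 fell 2.79-fold (log2 fold change -1.48, SE 0.070, adjusted p = 3.86e-06 by edgeR). Endothelial cells also express it: of 5 endothelial markers, 4 passed the filter and all 4 were called lower, with a summed level of 10.1 to 13.3 CPM in Tespa1+/+ and 3.24 to 3.87 CPM in Tespa1-/- libraries, and Lyve1 at 0 in every library. Their part in the Myct1 result was not tested.

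Levels can be compared between genes per length, as FPKM (counted fragments scaled by gene length and library total). In Tespa1+/+ LSKs, Msi2 was highest at 15.9 ± 0.617 FPKM (SD, n = 3), followed by Myct1 at 9.67 ± 0.434 and Hmga2 at 5.30 ± 0.132. Hlf at 2.59 ± 0.630 and Meis1 at 2.47 ± 0.0751 overlapped, and Igf2bp2 was lowest at 0.270 ± 0.0199. In Tespa1-/- LSKs, Msi2 at 6.21 ± 0.110 and Myct1 at 3.23 ± 0.0760 still led, whereas Hmga2 at 0.638 ± 0.143 came after Hlf at 1.04 ± 0.0916 and Meis1 at 0.943 ± 0.0397 and overlapped with Mllt3 at 0.628 ± 0.0611. Prdm16 at 0.470 ± 0.0851 stood above Mecom at 0.205 ± 0.0305 in the knockout, while in the wild type Mecom at 0.696 ± 0.0515 stood above Prdm16 at 0.535 ± 0.0664. Igf2bp2 at 0.135 ± 0.0458 overlapped with Mecom in the knockout.

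The fold changes of all genes were related to the length of their exons, which matters here because most of the 9 genes are long. Across 10135 genes above a log2 CPM of 3, Spearman's rho between the log2 fold change and exon length was -0.61, a description across genes of the same 6 libraries. The sum of FPKM was 350333 to 351987 in Tespa1+/+ and 432222 to 433536 in Tespa1-/- libraries, so counts lay on shorter genes in the knockout. Of the 9 genes, 8 were longer than the median of the genes tested, 3663.5 bases. Mecom, with 12427 bases of exon, was longer than 96.1% of these, while Myct1, with 2845 bases, was longer than 38.4%. The source of this trend was not tested.

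**Figure D2:**
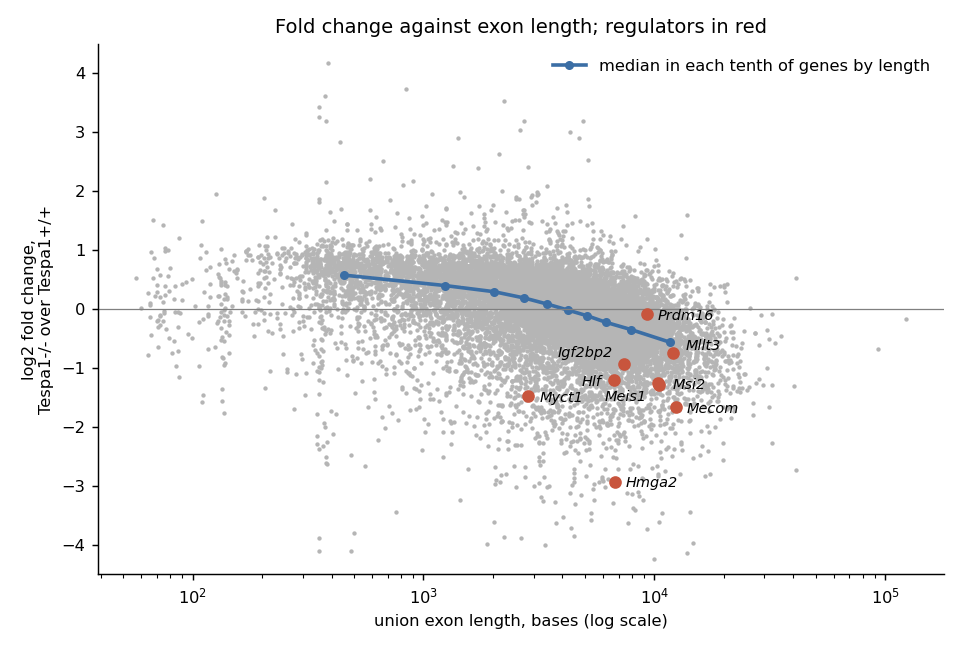
Log2 fold change (vertical axis, cut at 4.5 on either side, which leaves out 54 genes) against union exon length in bases (log scale) for 14203 genes with a mean log2 CPM over 0, in grey, with the 9 regulators in red. The blue line joins the median of each of 10 equal bins of the genes by length and falls from 0.58 for the shortest to -0.56 for the longest, and all of the 9 except Prdm16 lie below it.

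When this trend was fitted by loess and removed, 6 of the 9 genes were still called lower, beside 13.4% of all genes. The correction moved the median of all genes by 0.11. Hmga2 stood at -2.57, Myct1 at -1.51, Mecom at -1.03, Hlf at -0.85, Meis1 at -0.72 and Msi2 at -0.70. Mllt3 had a log2 fold change of -0.13 (adjusted p = 0.322 by edgeR) and Igf2bp2 of -0.53 (adjusted p = 0.0806 by edgeR). Prdm16 turned to 0.42, without passing the test (adjusted p = 0.0562 by edgeR). With a robust loess, which left the median of all genes at 0.02, the same 6 genes were called, beside 15.3% of all genes. Igf2bp2 was then at -0.61, past the fold of 1.5, but missed the test narrowly (adjusted p = 0.0501 by edgeR).

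**Figure D3:**
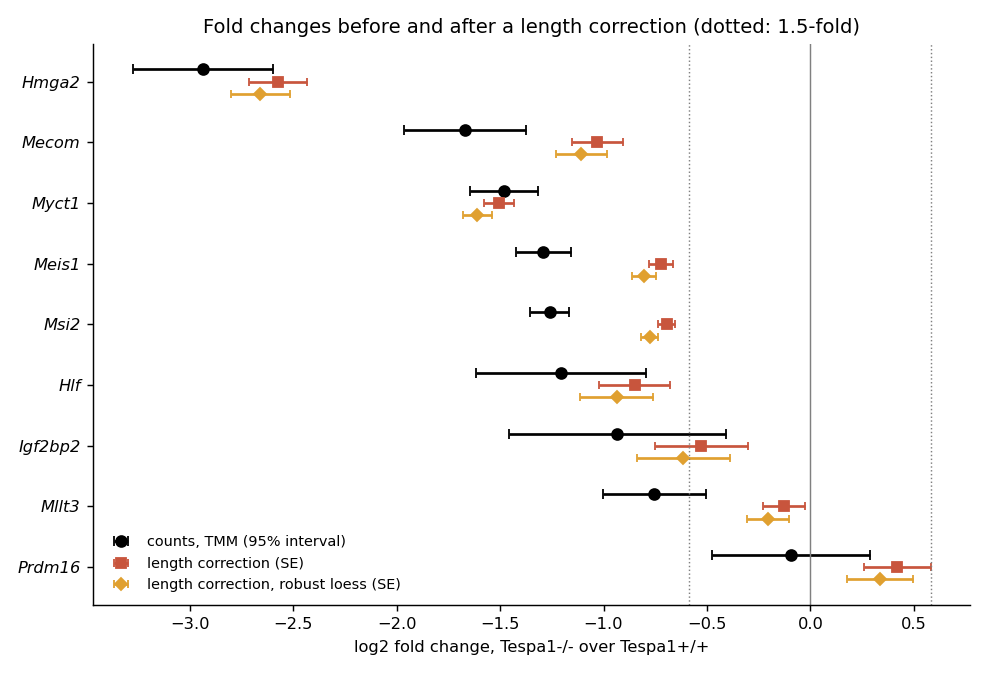
Log2 fold change (horizontal axis, Tespa1-/- over Tespa1+/+) of the 9 genes from the counts (black, with 95% interval), after the length correction (red, with SE) and after its robust version (yellow, with SE). Dotted lines mark a fold of 1.5. Hmga2 stays lowest at -2.94, -2.57 and -2.66, Myct1 hardly moves, and Mllt3, Igf2bp2 and Prdm16 stand to the right of the lower line after the length correction. In the robust version Igf2bp2, at -0.61, stands to the left of that line.

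The paralogues show what the rest of each family did in the same libraries. Of 23 paralogues, 14 passed the filter, and of these 5 were called lower (Tef, Prdm1, Prdm10, Dbp and Prdm2) and 1 higher (Nfil3), with a median log2 fold change of -0.45. All genes tested had 19.2% called lower and 14.0% higher. Tef and Dbp encode the other PAR bZIP activators, and Nfil3 a repressor that binds the same DNA sites. Tef fell from 26.59, 25.02 and 24.42 CPM to 10.22, 11.02 and 8.06 CPM (log2 fold change -1.37, adjusted p = 4.96e-05 by edgeR), and Dbp fell by 0.76 on the log2 scale (adjusted p = 0.00859 by edgeR). Nfil3 moved the opposite way, from 23.2, 22.5 and 23.1 CPM to 47.7, 47.3 and 45.8 CPM, with no overlap between genotypes (log2 fold change 1.03, adjusted p = 4.03e-06 by edgeR). The log2 ratio of Hlf to Nfil3 differed by -2.21 between genotypes (exact permutation p = 0.1, the smallest possible), and that of Hlf to Tef by 0.20 (exact permutation p = 0.5).

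Hmga1, the other AT-hook gene of the HMGA family, was 164.2, 164.2 and 152.8 CPM in wild-type and 200.7, 198.1 and 212.3 CPM in knockout libraries. It was thus higher in every knockout library while Hmga2 was lower, and although it passed the test its log2 fold change of 0.34 (adjusted p = 0.000373 by edgeR) was under the fold of 1.5. The size of the Hmga1 difference depended on the length correction, with 0.23 on exon length, 0.12 with robust loess, where it did not pass the test (adjusted p = 0.0580 by edgeR), and 0.77, past the fold of 1.5, with the implied length. Hmga2 made up 29.1 ± 1.32% of the summed HMGA FPKM in Tespa1+/+ and 4.02 ± 0.983% in Tespa1-/- libraries (SD, n = 3), and the log2 ratio of Hmga2 to Hmga1 differed by -3.29 (exact permutation p = 0.1, the smallest possible). Igf2bp3 did not pass the test (log2 fold change 0.13, adjusted p = 0.493 by edgeR), but was at 0.58 in the length correction (adjusted p = 0.0143 by edgeR), and Igf2bp1 had no counts. The share of Igf2bp2 in the IMP family was 49.5 ± 2.89% in Tespa1+/+ and 32.2 ± 6.96% in Tespa1-/- libraries (SD, n = 3).

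**Figure D4:**
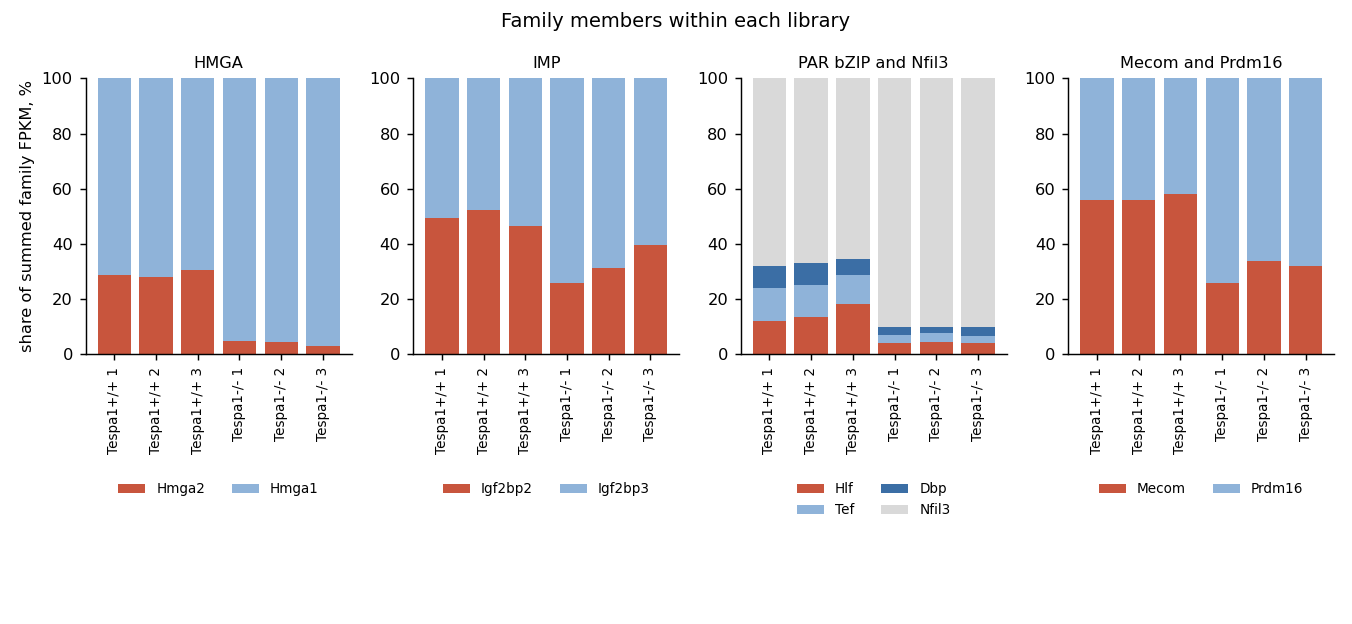
Share of each family member in the summed FPKM of its family (vertical axis, percent, from 0 to 100) in each of the 6 libraries. The share of Hmga2 is 28.1 to 30.6% in Tespa1+/+ and 2.89 to 4.72% in Tespa1-/- libraries, that of Hlf 12.1 to 18.4% against 3.91 to 4.59%, and that of Mecom 55.8 to 58.1% against 25.8 to 33.8%.

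Mllt1, which encodes ENL, the paralogue of AF9, passed the test at a log2 fold change of -0.37 (adjusted p = 0.000288 by edgeR) but stayed under the fold of 1.5. Mllt3 was the minor partner in every library, at 4.23 to 4.89% of their summed FPKM in Tespa1+/+ and 3.10 to 4.02% in Tespa1-/- libraries. The Meis1 and Msi2 families had no second member at a comparable level: Msi1 had no counts, and Meis1 held at least 95.7% of the MEIS FPKM in every library. Among the PR-domain genes, Prdm1, which encodes BLIMP1, had a log2 fold change of -1.19 (adjusted p = 0.0325 by edgeR) at 0.242 to 1.38 CPM. Its call was lost in all 3 length corrections (adjusted p = 0.0631 to 0.0839 by edgeR), with DESeq2 (adjusted p = 0.118) and glmTreat (adjusted p = 0.181), and without Tespa1+/+ replicate 1 (-0.91, adjusted p = 0.0857 by edgeR), Tespa1-/- replicate 2 (-1.16, adjusted p = 0.0867 by edgeR) or Tespa1-/- replicate 3 (-0.95, adjusted p = 0.0924 by edgeR). Prdm10 had -0.83 and Prdm2 -0.72, of which the length correction left -0.32 and -0.31, and Prdm15 (-0.55) passed the test under the fold of 1.5 but was at 0.05 after the correction. Prdm4 (-0.04), Prdm11 (-0.08) and Prdm9 (0.20) did not pass it. In the length correction Prdm11 was at 0.68, higher in the knockout and past the fold of 1.5 (adjusted p = 0.000694 by edgeR), and Prdm4 at 0.17 (adjusted p = 0.0299 by edgeR). The sign of Prdm9 turned without Tespa1+/+ replicate 2.

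Of 22 genes for partners and cofactors, 20 passed the filter, 8 were called lower and 1 higher, with a median log2 fold change of -0.20. Among all genes tested, 19.2% were called lower and 14.0% higher. The largest falls were in Kmt2a, which encodes the histone methyltransferase MLL, and in Aff4, the scaffold of the super elongation complex. Kmt2a was 256.3, 260.8 and 256.0 CPM in wild-type and 101.1, 102.4 and 99.1 CPM in knockout libraries (log2 fold change -1.35, adjusted p = 4.14e-07 by edgeR). Aff4 fell by 1.32 on the log2 scale, and among the other AF9 partners Aff1 fell by 0.70, Dot1l by 0.63 and Mllt10 by 0.59. None of these 3 kept a fold over 1.5 in the length correction, which left Aff1 at -0.18, Mllt10 at -0.30 and Dot1l at -0.15 (adjusted p = 0.125 for Dot1l by edgeR), while Kmt2a stood at -0.60 and Aff4 at -0.65. The only gene of the list called higher was Lin28a, whose protein blocks the maturation of let-7, at 0.991, 1.17 and 1.01 CPM in Tespa1+/+ and 2.11, 2.20 and 3.06 CPM in Tespa1-/- libraries (log2 fold change 1.18, adjusted p = 0.0021 by edgeR). Its relative Lin28b, on the same list, went the other way and was called lower (log2 fold change -0.62, adjusted p = 0.0423 by edgeR). Lin28b was at 2.20, 2.44 and 1.82 CPM in Tespa1+/+ and 1.12, 1.79 and 1.37 CPM in Tespa1-/- libraries. The list had 3 genes called lower after the length correction, beside 13.4% of all genes. It had 5 without Tespa1+/+ replicate 1 or without Tespa1+/+ replicate 2.

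Among 8 known targets of the 9 proteins that are not themselves in the group, 5 were called lower and 0 higher, with a median log2 fold change of -0.95. The shares over all genes tested were 19.2% lower and 14.0% higher. Hgf, which encodes hepatocyte growth factor and is a target of PRDM16, fell from 20.1, 19.3 and 17.6 CPM to 7.93, 3.51 and 6.13 CPM (log2 fold change -1.69, adjusted p = 0.000752 by edgeR), although Prdm16 itself was not called. Ikzf2, an RNA target of MSI2 that encodes Helios, fell by 1.28 (adjusted p = 4.08e-05 by edgeR); it too is marked on the plots of the study. Flt3, a receptor gene and target of MEIS1, fell by 1.01 on the log2 scale (adjusted p = 1e-06 by edgeR).

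Of 16 other regulators of HSC self-renewal, 15 passed the filter, 5 were called lower and 0 higher, and the median log2 fold change was -0.48. Over all genes tested, the shares were 19.2% and 14.0%. With the fold left out, 10 of the list passed the test downward and 3 upward. After the length correction 2 were called lower, and 4 with its robust version, beside 13.4% and 15.3% of all genes. Nfix, a nuclear factor I gene, was 113.1, 104.9 and 112.8 CPM in wild-type and 16.9, 19.7 and 68.1 CPM in knockout libraries. The third knockout library stood apart from the other knockout libraries. Its log2 fold change was -1.68 (adjusted p = 0.0195 by edgeR), -2.59 without Tespa1-/- replicate 3, and -1.39 without Tespa1-/- replicate 2, where the call was lost (adjusted p = 0.0567 by edgeR). The Nfix call was also lost in the length correction (-1.27, adjusted p = 0.0569 by edgeR) and with glmTreat (adjusted p = 0.0913). Erg, an ETS factor, fell by 1.07 (adjusted p = 2.66e-05 by edgeR), and Gata2, a zinc finger factor of stem and progenitor cells, by 0.91 on the log2 scale (adjusted p = 0.0046 by edgeR).

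The factors that have been used together to turn blood cells into induced stem cells include Hlf and Meis1. Of the 6 others, 4 passed the filter, 2 were called lower and 0 higher, with a median log2 fold change of -0.77, and Runx1t1 and Zfp37 were at 0 in every library. For all genes tested, 19.2% were called lower and 14.0% higher. Mycn, a relative of MYC, was 12.7, 12.2 and 13.4 CPM in wild-type and 2.29, 2.82 and 1.85 CPM in knockout libraries. All knockout libraries lay well below the wild-type libraries (log2 fold change -2.45, adjusted p = 9.7e-06 by edgeR).

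**Figure D5:**
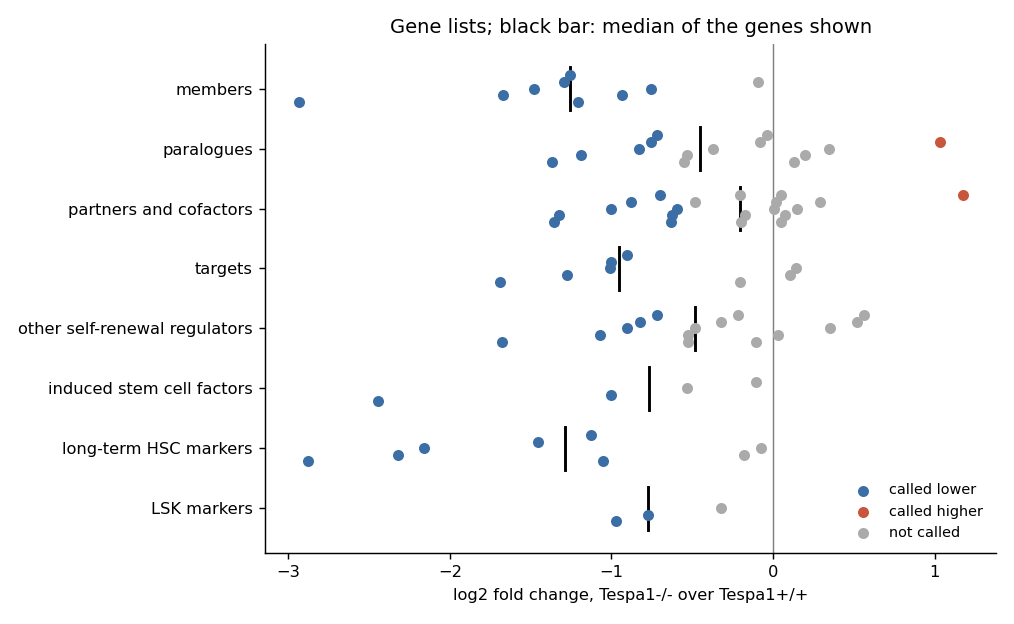
Log2 fold change (horizontal axis) of each gene tested in 8 lists, one row per list, with genes called lower in blue, higher in red and the others in grey; the black bar is the median of the row. The 9 regulators have a median of -1.26, the long-term HSC markers of -1.29 and the partners and cofactors of -0.20.

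Marker lists of other cell types also differed between the genotypes, in both directions. Their counts stand beside 19.2% called lower and 14.0% called higher over all genes tested. Mature cells were depleted with a lineage kit before the sort, which with the lineage stain is meant to remove T, B, erythroid and mature myeloid cells, neutrophils included. Of 8 long-term HSC markers, 6 were called lower and 0 higher (median log2 fold change -1.29), and their summed level was 80.0 to 80.9 CPM in Tespa1+/+ and 26.01 to 26.80 CPM in Tespa1-/- libraries. Of 5 markers of multipotent and lymphoid-primed progenitors, 4 were called lower, with a summed level of 571.4 to 589.3 CPM against 268.9 to 278.2 CPM. All 7 neutrophil markers that passed the filter were called higher (median log2 fold change 6.97), opposite to the 8 regulators called lower, with a summed level of 20.9 to 23.7 CPM in Tespa1+/+ and 463.1 to 489.2 CPM in Tespa1-/- libraries, and 3 of 4 promyelocyte markers were called higher. The T cell markers summed to 0.270 to 0.661 CPM in Tespa1+/+ and 0.294 to 0.344 CPM in Tespa1-/- libraries, and none passed the filter. Of the other lists, 3 of 4 B and plasma cell markers tested were called lower and 1 higher, 2 of 4 erythroid markers lower and 2 higher, 1 of 5 monocyte and macrophage markers lower and 1 higher, 1 of 4 megakaryocyte markers lower, and the 1 stromal marker tested lower. The part of these cells in the results of the 9 genes was not tested.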

How the data were processed

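RNA from LSKs of 3 Tespa1+/+ and 3 Tespa1-/- samples was sequenced as stranded, poly-A selected, paired-end libraries. The authors deposited a table of 55487 genes with a raw count and an FPKM value per sample. The deposited counts are raw whole numbers, and the deposited FPKM values are the same counts divided by a gene length and the total of the sample. The submitters' processing notes name CASAVA 1.8, HISAT2, StringTie, edgeR and GRCm38. Whether counting used the strand was not given in the sources used here, so overlapping genes are uncertain. Of the genes, 55227 were found in GENCODE M21, 54870 with identical coordinates. Depth was 12856630 to 30576981 counts per sample, which limits counting error only.

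After filterByExpr and TMM scaling, all 6 samples entered a quasi-likelihood F-test without covariates (edgeR 4.0.16, R 4.3.3), with Benjamini-Hochberg adjustment over 15332 genes. A call required a fold above 1.5 with an adjusted p below 0.05, and fold changes are Tespa1-/- over Tespa1+/+. CPM values were computed from the counts and TMM factors. The lists came from general knowledge, and the 9 genes and the lists were chosen with earlier results of these data known. Named were the 9 genes, their tested paralogues, the called genes with the 3 largest falls and rises of each other list, partners and targets of the 9 proteins, Tespa1, Kit and Ly6a, and marker lists by count. Some genes of these lists enter the counts but are not reported here by name. Ratios of a gene to its paralogue were compared with an exact permutation test. Motifs were searched in the 250 bases before RefSeq starts.

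Alternatives were RLE size factors, library totals alone, DESeq2 1.42.0, no filter, a minimum of 10 counts in every library, limma-trend (limma 3.58.1) on log2(FPKM + 1) and log2(FPKM + 0.1), glmTreat, a block for the replicate number, each replicate left out in turn, the cutoff on unadjusted p, and a length correction, in which the deviation of each library from the mean log2 CPM was fitted by loess (span 0.5) on union exon length and used as an offset. Added after seeing the data were the same correction with the length implied by the deposited values and with a robust loess. The scripts were tested on simulated data.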

Additional observations from a re-analysis of the deposited data

How the results depend on the processing

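The 8 calls among the 9 genes held under RLE size factors, library totals alone, both filters, DESeq2, the replicate block, the cutoff on unadjusted p and every replicate left out. With glmTreat and all 3 length corrections 6 were called, and Mllt3 and Igf2bp2 were not. Under limma-trend on log2(FPKM + 1), 5 members called lower remained of the 6 that could be fitted, since Igf2bp2, Mecom and Prdm16 were below its filter. Replicate numbers were shared between genotypes, but samples with the same number did not deviate together (correlations 0.046, 0.011 and 0.060). The fit with the replicate block called 8 of the 9 genes, 2871 genes lower and 2101 higher, and 6 of the partners and cofactors lower in place of 8, and it changed no call of a gene named in the report.

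Genes called lower were 1626 under limma-trend on log2(FPKM + 1) and 1807 under glmTreat, against 2951. Genes called higher were 1070 under limma-trend on log2(FPKM + 1), 1365 on log2(FPKM + 0.1), 1020 under glmTreat and 1229 with the robust length correction, against 2148. Paralogues called lower were 2 under limma-trend on log2(FPKM + 1), glmTreat and all 3 length corrections, against 5, and those called higher 2 under the length corrections, against 1. Partners and cofactors called lower were 4 under glmTreat, 3 with the length correction and its robust version, 2 with the implied length and 5 to 8 with a replicate left out, against 8, and those called higher 0 under both limma-trend fits, 2 with the length correction and its robust version and 3 with the implied length, against 1. Other self-renewal regulators called lower were 2 under glmTreat and the length correction and 3 with the implied length, against 5, and those called higher were 0 to 1 with a replicate left out. Induced stem cell factors called lower were 1 under each length correction, against 2.

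Of the other called genes named in the report, edgeR's glmTreat against a fold of 1.5 also lost Prdm1 and Nfix, given there, Dbp (adjusted p = 0.265), Gata2 (0.1002), Prdm10 (0.121), Dot1l (0.391) and Mllt10 (0.703). Lin28b was not checked singly under the alternatives.

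The direction reversed for Prdm16 in the length correction (0.42), with implied length (0.42), with robust loess (0.34) and without Tespa1-/- replicate 2 (0.060), within -0.191 to 0.060 over the replicates left out. It reversed in the same 3 corrections for Prdm4 (0.168, 0.275 and 0.0746) and Prdm11 (0.68, 0.40 and 0.61), in the first 2 for Prdm15 (0.0521 and 0.118), and for Prdm9 without Tespa1+/+ replicate 2 (-0.0411, with 0.365 as the highest over the replicates left out). Beyond the length trend that the corrections remove, the cause of these changes was not tested.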
